A study of Mus musculus with 9 samples.

Results

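Converted and monocyte-derived macrophages of the mouse peritoneal cavity were compared by RNA-seq, using the 3 libraries titled as tissue-converted and the 3 titled as monocyte-derived, 6 of the 9 libraries in the series. All mice were Cx3cr1CreERT2-IRES-EYFP/+ Rosa26-stopfl-tdTomato/+. They carried a tamoxifen-inducible Cre recombinase with EYFP under the control of Cx3cr1, a gene of monocytes and some macrophages, and a tdTomato reporter that Cre switches on. Every mouse received IL-4 complexes (5 µg of IL-4 with 25 µg of anti-IL4) every other day from 4 days before harvest, so no library shows these cells without IL-4. The monocyte-derived macrophages were taken 4 days after 2 ml of thioglycollate, a sterile irritant that draws blood monocytes into the cavity. The converted macrophages came from mice that had received 2 ml of thioglycollate and a continuous tamoxifen diet for 10 weeks before harvest. The age of the thioglycollate response and the tamoxifen exposure therefore differed together between the groups and cannot be told apart. Sex, read from X- and Y-linked transcripts (below), differed with them. The 3 resident libraries, with no group-specific treatment in the labels, entered the fit to estimate the spread and are quoted only as a reference level. Resident libraries differed less from each other than the libraries within either compared group did. The shared spread may therefore be too small for this comparison, and p-values and intervals too narrow (fits without this sharing are given below). No label gives the sort gates or the ages of the mice, or says if each library is a mouse of its own. The p-values therefore rest on the spread among libraries, part of which may be technical.

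Resident peritoneal macrophages are long-lived cells that depend on the transcription factor GATA6, clear dying cells from the serous cavity and renew themselves by division. Monocytes recruited by an irritant enter as short-lived inflammatory cells and can, over weeks, take on features of the macrophages they join. IL-4 acts through its receptor and the transcription factor STAT6 to bring on alternative activation, and it can drive macrophages to divide.

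The libraries held 15220884 to 20496258 reads in genes, and 17871 to 18918 genes had at least 1 read in the 6 libraries compared. The first principal component separated both groups and carried 82.8% of the variance, and the second, with 6.88%, spread the monocyte-derived libraries only. The pan-macrophage receptor gene Csf1r stood at 1158, 1073 and 1053 CPM (read counts scaled to a common library size) in monocyte-derived and 1127, 1074 and 1159 CPM in converted libraries, and Gata6 at 0.587, 2.08 and 1.62 CPM against 177, 132 and 173 CPM. Csf1r does not stand for all macrophage genes. Of 14 listed for macrophage identity, 3 were higher in converted libraries, 5 were lower and 6 were not called. Over all genes, 25.8% were higher and 24.9% lower. As examples among macrophage markers, Itgam and Mertk were higher and Fcgr1 was lower (values below). They do not give the balance of such markers. Adgre1, Cd68 and Lyz2, also chosen as macrophage markers, are not given here. Cx3cr1, the gene that drives the Cre, had 20 reads over the monocyte-derived and 6 over the converted libraries and was too low to test. Of lists of markers for other cells, 14 of 22 tested B-cell genes were higher in converted libraries (summed level 150.2 to 306 CPM against 47.2 to 116), and 7 of 12 dendritic cell genes were lower (87.5 to 146 CPM against 152 to 293). Of 13 NK and innate lymphoid genes 11 were lower and 1 higher, with summed levels of 165 to 258 CPM in converted and 101 to 295 CPM in monocyte-derived libraries. Of 9 neutrophil genes 7 were lower and 1 higher (147 to 182 CPM against 64.7 to 127). Of 6 mast cell and basophil genes 4 were lower and 1 higher (63.5 to 81.9 CPM against 10.6 to 34.7). In both lists the sum was thus higher although most members were lower. With 1 member called higher in each, these sums can rest on a single gene and need not follow the number of such cells. T-cell genes summed to 6.45 to 14.5 CPM against 30.2 to 96.2, with 4 of 18 lower and 1 higher. Of 4 tested eosinophil genes 2 were higher and 1 lower, and the sum of 4716 to 4864 CPM against 781 to 1045 came mostly from Alox15, a lipoxygenase that alternatively activated macrophages also make, in converted libraries and from the ribonuclease gene Ear2 in monocyte-derived ones. The eosinophil granule genes Prg2, Epx and Prg3 had no read in these libraries. The Y-linked Ddx3y and Eif2s3y had no read in monocyte-derived libraries and were at least 1566-fold and 1358-fold higher in converted ones, and Xist had no read in converted libraries, at least 1195-fold lower. By these transcripts the monocyte-derived libraries came from female and the converted libraries from male mice. Sex and group therefore cannot be told apart, and the part of other cells in the differences below was not tested.

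Of 13223 genes tested, 6703 (50.7%) differed between converted and monocyte-derived macrophages at an adjusted p under 0.05, 3416 (25.8%) higher and 3287 (24.9%) lower in converted cells. Genes past this threshold are called higher or lower below. Calls of at least 2-fold numbered 3252 (24.6%), with 1815 (13.7%) higher and 1437 (10.9%) lower, and calls of at least 10-fold numbered 398 (3.01%) higher and 406 (3.07%) lower. At these rates single calls are common, so each gene list below is read against the 25.8% and 24.9% of all genes. Groups without overlap were common too, in 56.3% of all genes tested, and each such statement below is read against that share. Many genes named below were chosen for a large fold, which makes a lack of overlap likely. It is given as a description, not as support. In a bulk library, fewer cells that express a gene and less RNA of it per cell cannot be told apart. In what follows, 3 values in a row are CPM in libraries 1, 2 and 3 of a group. A change is the log2 fold change of converted over monocyte-derived cells with an approximate standard error. That error was worked out from the quasi-likelihood test statistic and the fold, not estimated directly. For genes with few reads in a group, such as Ucp1, Itgax and Itgb5 below, it is smaller than the counting error of those reads. The largest folds are therefore less precise than their printed errors.

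The largest folds were ranked among called protein-coding genes without overlap between the groups and above a minimum level in the higher group. Predicted genes, olfactory genes and antigen receptor segments were left out. Besides the Y-linked genes, the largest rises in this ranking included genes close to silent in monocyte-derived libraries. Timd2, a receptor for ferritin, had 1 read in the monocyte-derived group and 51.2, 92.7 and 79.5 CPM in converted libraries, a ratio of 3808 (95% counting interval 683 to 150444). Kcnn3, a calcium-activated potassium channel, gave a ratio of 1546 (95% counting interval 529 to 7498), and Wnt2, a secreted Wnt ligand, a ratio of 954 (95% counting interval 326 to 4628). Ucp1, the uncoupling protein best known from brown fat, stood at 0, 0.0578 and 0.194 CPM in monocyte-derived and 97.8, 78.9 and 77.1 CPM in converted libraries (9.97 ± 0.35, adjusted p = 4.1e-08). The resident mean of Ucp1 was 124 CPM. The largest falls in this ranking included genes that converted cells hardly transcribed. Ch25h, which makes 25-hydroxycholesterol, had 19.8, 78.6 and 46 CPM in monocyte-derived libraries and no read in converted ones, at least 899-fold lower. Gpr141, an orphan receptor, had 1 read in the converted group, a ratio of monocyte-derived over converted of 2426 (95% counting interval 435 to 95846), and Itgax, the integrin chain CD11c, fell from 177, 233 and 247 CPM to 0.0498, 0.210 and 0.450 CPM (-9.86 ± 0.32, adjusted p = 3.2e-08).

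Some genes had a change near zero with a narrow interval. For 1007 genes (7.62%) the whole 95% interval of the log2 fold change lay within 0.32 of zero. Among those with the highest read levels were Atp5b, a subunit of the mitochondrial ATP synthase (change 0.01, interval -0.16 to 0.18), the small GTPase gene Rap1b (-0.03, -0.21 to 0.14), the second synthase subunit Atp5a1 (0.15, -0.01 to 0.31, although called higher with DESeq2 at an adjusted p of 0.02) and the initiation factor Eif4g2 (-0.07, -0.26 to 0.12). Csf1r, the receptor on which macrophage survival depends, was also among them (0.03, -0.14 to 0.21). The uncoupling protein gene Ucp2 stayed within the same limits (-0.01, -0.24 to 0.23), in contrast to Ucp1.

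**Figure D1:**
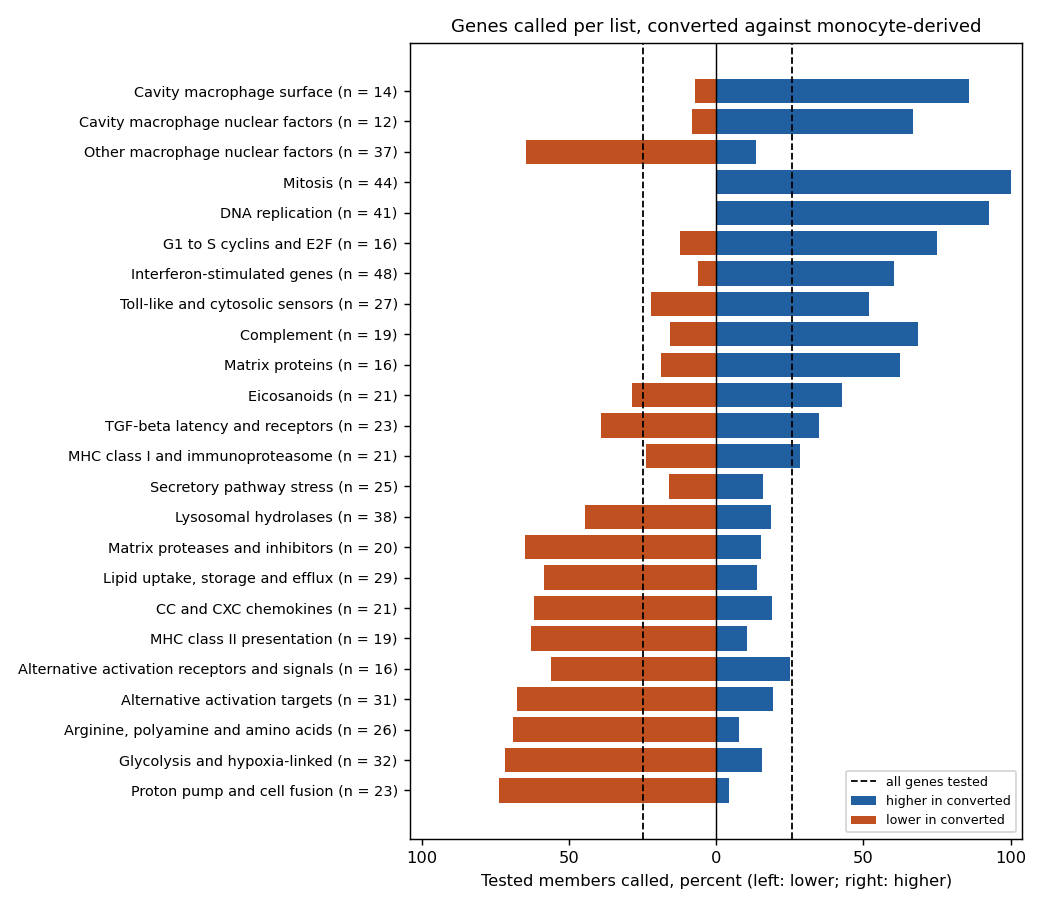
Share of the tested members of each gene list that were called, in percent, with members lower in converted libraries to the left and members higher to the right. Dashed lines mark the shares over all 13223 genes tested, 24.9% lower and 25.8% higher. The mitosis and DNA replication lists lie to the right with no member called lower, and the lists of cell fusion, glucose and amino acid genes lie to the left.

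Factors of cavity macrophages were mostly higher in converted cells and other macrophage factors mostly lower. Of 12 factors listed for cavity macrophages, 8 were higher in converted cells (25.8% of all genes were), 1 was lower and 3 were not called, while of 37 tested factors with other roles in macrophages 5 were higher and 24 lower. Hes1, a repressor switched on by Notch signalling, stood at 1.55, 2.14 and 1.88 CPM in monocyte-derived and 48.4, 38.2 and 53.8 CPM in converted libraries (4.66 ± 0.17, adjusted p = 4.9e-08). Nfe2, a leucine zipper factor best known from blood platelet precursors, rose from 40.4, 35 and 45.9 to 181, 164 and 202 (2.18 ± 0.11). Klf2, a zinc finger factor that restrains inflammatory genes, rose from 181, 214 and 265 to 608, 533 and 757 (1.52 ± 0.16). In each of these 3 genes the lowest converted library lay above the highest monocyte-derived one; groups did not overlap in 56.3% of all genes tested. The retinoic acid receptor gene Rarb (1.62 ± 0.36) and its partner Rxra (0.94 ± 0.09) were also higher, as were Id2 (1.35 ± 0.13), an inhibitor of basic helix-loop-helix factors, and Maf (1.33 ± 0.19), a factor of mature macrophages.

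Egr2, an IL-4-responsive factor, fell from 153, 168 and 209 CPM to 1.74, 1.31 and 5.06 CPM (-6.04 ± 0.40, adjusted p = 2.4e-06). Pparg, the lipid-sensing receptor that supports alternative activation, fell from 50.2, 99.9 and 102 to 3.19, 1.58 and 2.42 (-5.12 ± 0.37), and Irf8, which specifies monocytes and dendritic cells, from 66.1, 84.5 and 96.2 to 7.03, 7.83 and 6.98 (-3.5 ± 0.19). Resident libraries had a mean of 5.96, 1.2 and 34.1 CPM for the 3 genes, and B-cell and dendritic cell genes, of cells that also express Irf8, summed to 1599 to 2088 and 293 to 311 CPM in resident libraries, above their levels in converted ones. Batf3, a partner of Irf8 in dendritic cells, fell by 2.93 on the log2 scale (SE 0.19), and Cebpa, a factor of myeloid progenitors, by 2.19 (SE 0.21). Dendritic cell markers moved the same way (above), and their part in the fall of Irf8 and Batf3 was not tested. Some factors were not called: Spi1, which encodes the master myeloid factor PU.1, changed by 0.01 ± 0.10 (interval -0.20 to 0.23), Irf4, an IL-4-induced factor, by -0.06 ± 0.13 (-0.36 to 0.24), and the growth regulator Myc by -0.19 ± 0.18 (-0.59 to 0.22). Bhlhe40, a factor linked to division of cavity macrophages, was the 1 cavity factor called lower (-0.31 ± 0.10, adjusted p = 0.024), and this call was lost without monocyte-derived library 3 (0.087), converted library 1 (0.079) or converted library 2 (0.1) and in a fit of the 2 groups alone (0.083).

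**Figure D2:**
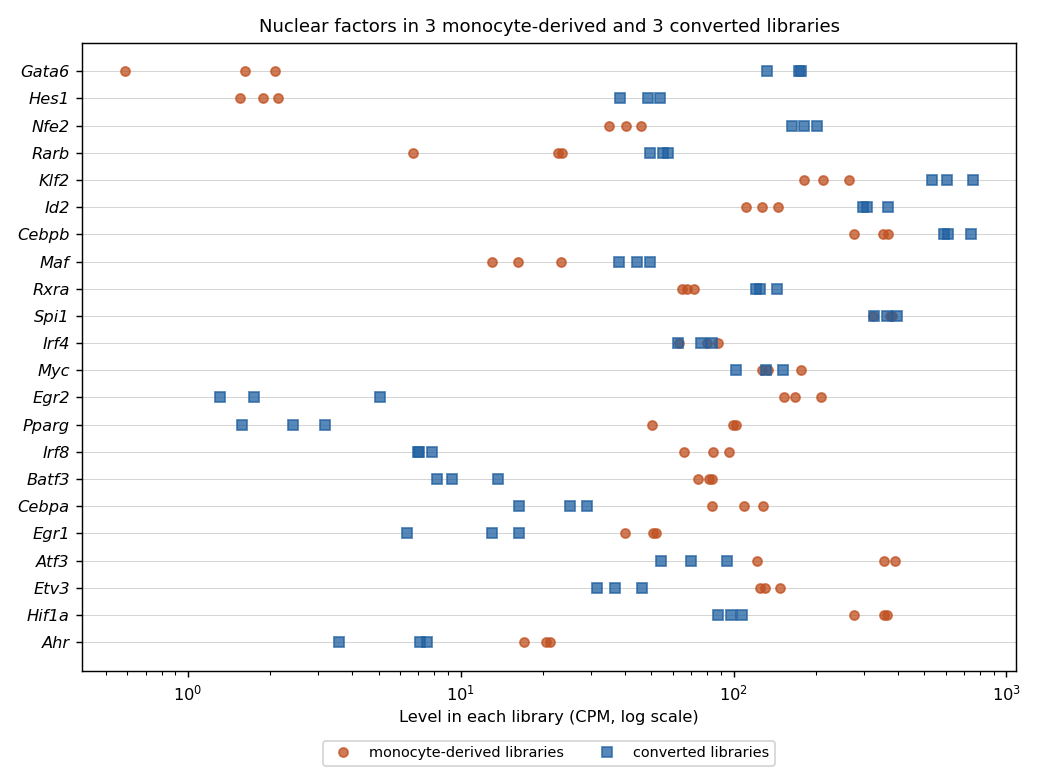
Level of 22 nuclear factors in CPM on a log scale, with circles for the 3 monocyte-derived and squares for the 3 converted libraries. Hes1 lies between 1.55 and 2.14 CPM in monocyte-derived and between 38.2 and 53.8 CPM in converted libraries, Egr2 lies the other way round, and the points of Spi1, Irf4 and Myc overlap.

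The receptor and several feedback inhibitors of the IL-4 pathway were lower in converted cells although both groups received IL-4. Of 16 receptor and signalling genes, 4 were higher and 9 lower. Il4ra, the chain that binds IL-4, stood at 198, 175 and 149.5 CPM in monocyte-derived and 68.8, 76.9 and 74.9 CPM in converted libraries (-1.24 ± 0.12, adjusted p = 1.9e-05), with a resident mean of 148 CPM. Cish, a feedback inhibitor of cytokine receptors that use STAT proteins, fell from 87.5, 59.9 and 83.5 to 2.49, 6.25 and 13 (-3.42 ± 0.44). Socs1, a feedback inhibitor of Janus kinases, fell from 197, 114 and 130.1 to 13.1, 16.3 and 37.8 (-2.72 ± 0.37), and its relative Socs2 from 10.8, 23.8 and 19.2 to 0.648, 0.525 and 0.506 (-4.98 ± 0.34). The groups did not overlap in any of these 4 genes. Stat6 itself changed little, from 290.2, 298 and 298 to 249, 233 and 255 (-0.27 ± 0.07, adjusted p = 0.0075), and that call was lost without the filter on low counts (0.064). Socs3, which restrains IL-6 signalling, and Dusp1, a phosphatase that switches off stress kinases, went the other way (0.84 ± 0.18 and 1.69 ± 0.18).

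Most targets of alternative activation were lower in converted cells, but some were higher. Of 31 tested members, 6 were higher and 21 lower in converted cells, with a median change of -3.42 against -0.01 over all genes. Their summed level was 62318, 91331 and 85266 CPM in monocyte-derived and 150675, 137868 and 167990.4 CPM in converted libraries, higher in converted cells, and most of it came from Chil3, Retnla and Arg1. Retnla was called higher, but its call was lost without monocyte-derived library 3 (adjusted p = 0.055), converted library 1 (0.1) or converted library 3 (0.11). It was also lost in a fit of the 2 groups alone (0.085), with a replicate block (0.052) and without the filter on low counts (0.15). The arginine transporter gene Slc7a2 rose from 916, 1351 and 1320.1 CPM to 2903, 2859.5 and 3360.4 CPM (1.35 ± 0.15), while Arg1, the arginase that uses the imported arginine, was not called (-0.10 ± 0.12, interval -0.36 to 0.17). Chil4, a chitinase-like protein, rose from 43, 69.4 and 61.6 to 214, 616 and 447 (2.87 ± 0.34). Its sequence is close to that of Chil3, and no source used here says how reads with several alignments were counted. The levels of both genes, and with them the sum above, are therefore uncertain. Tgm2, a transglutaminase used as a marker of alternative activation, fell from 949.6, 675 and 592 to 59.3, 115 and 239 (-2.42 ± 0.43), with a 4.04-fold range among the converted libraries.

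Genes of arginine, polyamine and amino acid metabolism were mostly lower in converted macrophages. Some of them belong to the response to amino acid shortage, which runs through the translationally controlled factor ATF4, which binds promoters at C/EBP-ATF response elements. Of 26 tested genes 18 were lower and 2 higher. Both genes that were higher transport arginine, Slc7a2 (above) and Slc7a7 (1.21 ± 0.13). Phgdh, the first enzyme of serine synthesis, fell from 290.2, 166 and 142 CPM to 0.847, 2.99 and 0.957 CPM (-6.95 ± 0.45, adjusted p = 2.2e-06). Asns, asparagine synthetase, fell from 495, 289.9 and 268 to 3.59, 23.3 and 13.8 (-4.7 ± 0.56, adjusted p = 1.1e-04). Slc7a11, the cystine importer, fell from 27.3, 12.8 and 18.8 to 0.847, 0.683 and 0.957 (-4.56 ± 0.33, adjusted p = 2.9e-06). None of the 3 genes had overlapping groups, and in each the first monocyte-derived library was the highest.

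The same direction was measured for Ddit4, an inhibitor of the growth kinase mTOR (-5.44 ± 0.51), Trib3, a pseudokinase induced by stress (-4.59 ± 0.48), Chac1, which breaks down glutathione (-3.4 ± 0.41), and Sesn2, a leucine sensor (-2.09 ± 0.25). The transporter pair Slc7a5 and Slc3a2, which together import leucine, changed by -2.28 ± 0.44 and -2.15 ± 0.20. Atf4 itself stood at 299.7, 239 and 271 CPM in monocyte-derived and 103, 144 and 120.4 CPM in converted libraries (-1.14 ± 0.13), a smaller change than in Asns or Trib3. Ddit3, the stress factor CHOP, changed by -0.84 ± 0.22. Of 25 genes of protein folding stress in the secretory pathway 4 were higher and 4 lower, with a median change of 0.02. Without monocyte-derived library 1, 9 were lower; without monocyte-derived library 2, 7 were higher, and without converted library 3, 2. The first monocyte-derived library was highest in 17 of 25 amino acid genes with at least 10 CPM in that group, against 38.1% of all genes at that level. Without it, 17 of the genes were lower and 4 higher.

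Promoter sequence was read for these genes because their response element is short and well defined. In RefSeq's promoter table for GRCm38.p6 (250 bases before to 50 bases after each start), TGATGNAA was found on either strand for 5 of 19 amino acid genes with an entry, 26.3%, against 4.51% of 27025 genes. The 5 genes were Asns, Chac1, Slc7a11, Trib3 and Slc7a7, of which the first 4 were lower and Slc7a7 higher in converted cells. This motif was chosen after the values had been seen. The promoters of Asns and Slc7a11 are shown from 5′ to 3′ on the strand of the gene, with TGATGNAA or its reverse complement in capitals, as examples chosen after their values were seen.
Asns (chr6:7693160-7693459, - strand): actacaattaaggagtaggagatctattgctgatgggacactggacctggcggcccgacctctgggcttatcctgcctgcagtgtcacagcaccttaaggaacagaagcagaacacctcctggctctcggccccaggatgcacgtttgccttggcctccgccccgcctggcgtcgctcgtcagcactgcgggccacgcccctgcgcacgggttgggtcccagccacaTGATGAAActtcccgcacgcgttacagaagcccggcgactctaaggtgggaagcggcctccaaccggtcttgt
Slc7a11 (chr3:50443564-50443863, - strand): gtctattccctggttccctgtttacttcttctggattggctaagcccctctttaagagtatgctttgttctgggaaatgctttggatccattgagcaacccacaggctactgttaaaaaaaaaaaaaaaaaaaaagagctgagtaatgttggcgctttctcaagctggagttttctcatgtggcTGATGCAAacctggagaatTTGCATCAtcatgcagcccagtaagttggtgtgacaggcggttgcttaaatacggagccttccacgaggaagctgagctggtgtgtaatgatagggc
The Asns promoter held 1 match, from base -23 to -16 relative to the start, and the Slc7a11 promoter held 2, from -66 to -59 and from -47 to -40 on opposite strands. A match describes the letters and shows no binding. The motif shares here and below cover all list members with an entry, called or not. They describe the lists and do not depend on the levels measured.

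Most genes of glucose handling were lower in converted cells, but some isoforms were higher. Of 32 genes of glycolysis and of the response to low oxygen, 23 were lower and 5 higher in converted cells. Vegfa, the growth factor for blood vessels, fell from 51.5, 116 and 150.5 CPM to 3.04, 2.1 and 2.53 CPM (-5.37 ± 0.41, adjusted p = 6.4e-06). Ndrg1, a gene strongly induced by low oxygen, fell from 53.4, 56.8 and 67.5 to 2.49, 2.99 and 2.03 (-4.56 ± 0.17), and Bnip3, which marks mitochondria for removal, from 111, 133 and 136 to 9.02, 7.09 and 12.3 (-3.75 ± 0.19). Hif1a, which encodes the oxygen-regulated factor that drives many of these genes, stood at 364, 277 and 355 CPM and 87.6, 108 and 97.9 CPM (-1.76 ± 0.12). The groups did not overlap in any of the 4 genes. Glucose transporter genes fell as well, Slc2a1 by 2.1 (SE 0.14) and Slc2a3 by 4.02 (SE 0.36) on the log2 scale.

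Paralogs of the same glycolytic step moved in opposite directions. Among hexokinases, which trap glucose in the cell, Hk2 was lower (-2.06 ± 0.22) and Hk1 higher (0.71 ± 0.09). Among phosphofructokinases, which commit sugar to glycolysis, Pfkp was lower (-2.13 ± 0.14) while Pfkl (0.89 ± 0.08) and Pfkm (2.52 ± 0.22) were higher. Further down the pathway Aldoa (-1.16 ± 0.09), Pkm (-0.91 ± 0.08) and Eno1 (-0.40 ± 0.08) were lower, and Gapdh was not called (0.03 ± 0.08, interval -0.16 to 0.21). Car12, a membrane carbonic anhydrase that is itself known as oxygen-regulated, rose from 0.960, 2.54 and 1.49 CPM to 141, 90.0 and 150.0 CPM (6.25 ± 0.31). The short core of the hypoxia response element, ACGTG, was chosen after the values had been seen. On either strand it was present in 21 of 29 promoters of the list (72.4%), against 21.8% of all promoters in the table. The 29 promoters were counted whatever the call of the gene, so the share does not bear on direction.

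**Figure D3:**
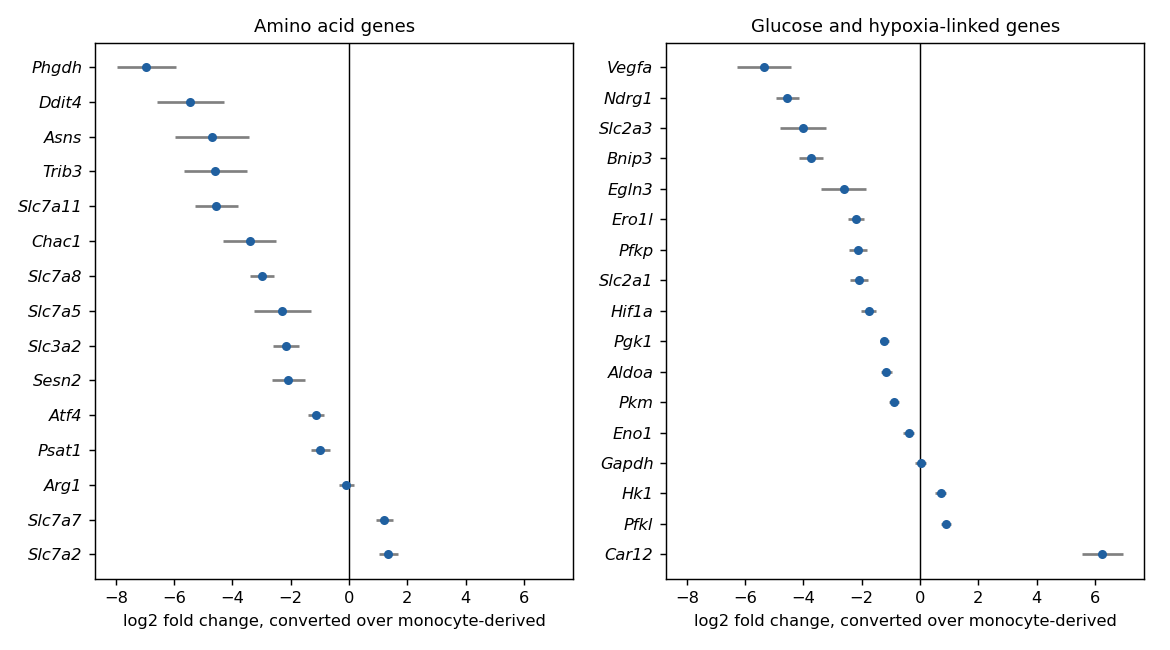
Log2 fold change of converted over monocyte-derived macrophages with its 95% interval for 15 amino acid genes and 17 glucose and oxygen-response genes. Phgdh at -6.95 and Vegfa at -5.37 lie furthest to the left, the interval of Gapdh includes 0, and Car12 at 6.25 lies furthest to the right.

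Genes of cell fusion and lipid handling were mostly lower in converted cells, and some of them differed widely among the monocyte-derived libraries. Of 23 tested genes of the proton pump and of macrophage fusion into giant cells, 17 were lower and 1 was higher; of 29 lipid genes 17 were lower and 4 higher; of 38 lysosomal genes 17 were lower and 7 higher. Gpnmb, a glycoprotein of stressed lysosomes, stood at 123, 2067 and 982 CPM in monocyte-derived and 1.4, 0.105 and 3.54 CPM in converted libraries (-9.32 ± 1.2, adjusted p = 2.2e-04). Atp6v0d2, a pump subunit needed for fusion, fell from 126, 762 and 473 to 0.997, 0.525 and 1.01 (-9.06 ± 0.78, adjusted p = 1.4e-05). Ocstamp, a membrane protein required for fusion, fell from 55.8, 52.2 and 58.9 to 0.0498, 0.105 and 0.338 (-8.39 ± 0.49). In all 3 genes every converted library lay far below every monocyte-derived one, but Gpnmb and Atp6v0d2 were lowest in the first monocyte-derived library, while Ocstamp was at a like level in each.

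Ctsk, the collagen-degrading cathepsin of osteoclasts, showed 25.3, 342 and 200.1 CPM against 0.149, 0.0525 and 0.169 CPM (-10.51 ± 1.26); its call was lost with limma-voom (adjusted p = 0.081). Dcstamp, the partner of Ocstamp, gave a ratio of monocyte-derived over converted of 1097 (95% counting interval 303 to 9063). Acp5, the tartrate-resistant phosphatase, changed by -4.63 ± 0.51, and Cd63, a late endosomal tetraspanin, by -6.36 ± 0.64. The adhesion molecule Cdh1 (E-cadherin), which IL-4 induces before fusion, fell from 609, 315 and 324 CPM to 7.38, 11.1 and 11.9 CPM (-5.36 ± 0.33). Nfatc1, the factor that drives osteoclast formation, was not called (0.26 ± 0.12, interval 0.00 to 0.52), but was called higher without monocyte-derived library 1 (adjusted p = 0.01).

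Single lipid genes went both ways. Lpl, the lipase that frees fatty acids from lipoproteins, fell from 811, 1984 and 1638 CPM to 122, 29.4 and 99.6 CPM (-4.14 ± 0.55), and Soat1, which stores cholesterol as esters, from 297, 451 and 407 to 80.7, 83.5 and 85.8 (-2.21 ± 0.15). Apoe, the apolipoprotein that carries cholesterol out of macrophages, rose from 43.2, 138 and 125 to 559, 652 and 1089.8 (2.91 ± 0.42). The scavenger receptor gene Msr1 (2.58 ± 0.15) and the fatty acid carrier Fabp7 (5.31 ± 0.21) were also higher. Its relative Fabp4 ranged from 25.5 to 205 CPM among monocyte-derived libraries and was not called (0.07 ± 0.53, interval -1.13 to 1.26). Acly, which supplies acetyl groups for lipid synthesis, rose from 403, 436 and 437 CPM to 2813, 2539.9 and 2628 CPM (2.65 ± 0.09), and so did Acaca, the next enzyme of that path (1.97 ± 0.21). Of 29 sterol and fatty acid synthesis genes 6 were higher and 5 lower (2 or 3 lower without monocyte-derived library 2 or 3).

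The spread within the groups was unequal. Among genes with at least 100 CPM, the highest library exceeded the lowest by at least 2-fold in 124 of 1976 genes (6.28%) in the monocyte-derived group and in 17 of 1930 (0.881%) in the converted group; the median ratio was 1.23 against 1.13. The widest ratios in the monocyte-derived group were in Gpnmb (16.8), Ctsk (13.5), the elastase gene Mmp12 (8.19) and Fabp4 (8.06). In the converted group they were in Tgm2 (4.04), the lipid hydrolase Pla2g7 (3.75), the chemokine Cxcl2 (3.28) and the acute phase protein Saa3 (3.2). The first monocyte-derived library was the lowest of its group in 31 of 36 lysosomal genes, 20 of 26 lipid genes and 18 of 22 pump and fusion genes with at least 10 CPM, against 38.6% of all genes at that level. Without that library, 25 lysosomal genes were lower in converted cells in place of 17, and 8 were higher.

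**Figure D4:**
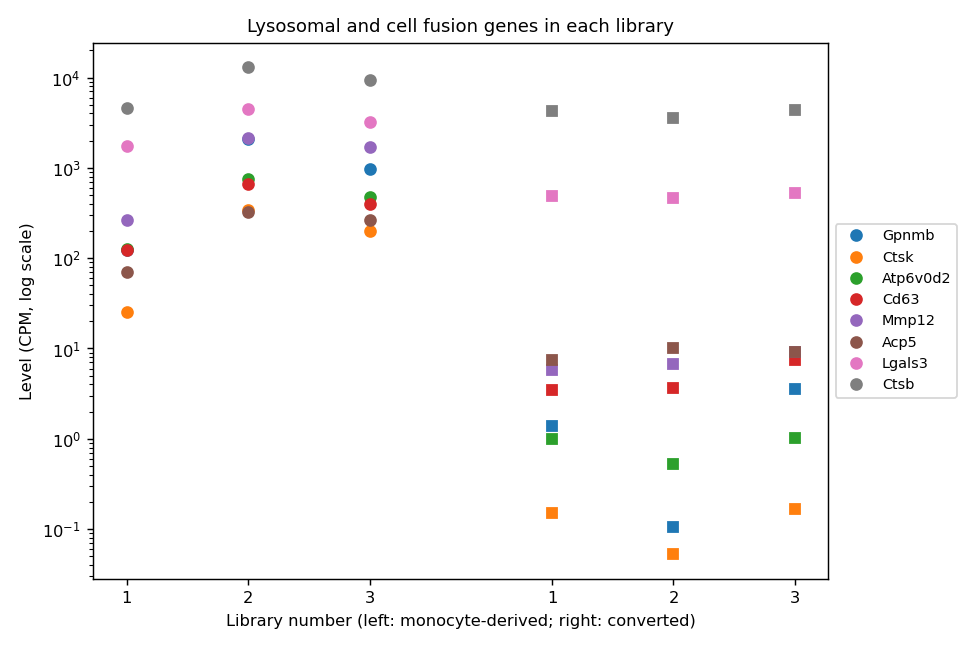
Level of 8 lysosomal, fusion and protease genes in CPM on a log scale, with circles for monocyte-derived and squares for converted libraries and a colour per gene. The first monocyte-derived library holds the lowest level of its group for all 8 genes, for example 123 CPM of Gpnmb against 2067 and 982, and every converted library lies below it; coinciding points overlie each other.

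Several enzymes that make eicosanoids, the lipid mediators derived from arachidonic acid, were higher in converted cells, and several receptors that sense them were lower. Of 21 tested genes 9 were higher and 6 lower. Alox5, which starts leukotriene synthesis, rose from 11.4, 29.4 and 23 CPM to 498, 528 and 667 CPM (4.73 ± 0.31, adjusted p = 2.2e-06). Ptgis, prostacyclin synthase, rose from 0.213, 1.16 and 0.971 to 246, 258 and 202 (8.26 ± 0.33, adjusted p = 1.1e-07). Converted libraries were also higher in Pla2g4a, the phospholipase that frees arachidonic acid (1.2 ± 0.11), Ptgs1, the constitutive cyclooxygenase (1.67 ± 0.22), and Ltc4s, which makes leukotriene C4 (2.36 ± 0.19). Tbxas1, thromboxane synthase, was lower (-1.29 ± 0.10). On the receptor side Ltb4r1, the leukotriene B4 receptor, fell from 571, 227 and 232 to 7.63, 7.98 and 6.3 (-5.55 ± 0.39), and Ptger2, a receptor for prostaglandin E2, from 163, 114 and 111 to 4.09, 5.31 and 8.21 (-4.46 ± 0.27). Cysltr1, which senses cysteinyl leukotrienes, was lower as well (-0.89 ± 0.12), while the second prostaglandin E2 receptor Ptger4 was higher (1.49 ± 0.23).

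Genes of DNA replication and mitosis were higher in converted cells almost without exception. Of 41 replication genes 38 were higher and none lower, of 44 tested mitosis genes all 44 were higher, and of 16 genes of the G1 to S switch 12 were higher and 2 lower. The summed level of the replication genes was 1125, 1588 and 2098 CPM in monocyte-derived and 4021, 5888 and 3938 CPM in converted libraries. For the mitosis genes the sums were 686, 1349 and 1961 CPM against 4333, 6536 and 4667 CPM. The lowest converted library thus lay above the highest monocyte-derived one in both sums, and the resident means were 3029 and 3630 CPM. The first monocyte-derived library was the lowest of its group in 36 of 36 replication and 42 of 42 mitosis genes with at least 10 CPM, and the second converted library the highest of its group in 39 of 39 and 44 of 44. Without either library, 38 replication genes were called higher, and 44 or 43 mitosis genes. The second converted library also held the highest sum of B-cell markers (306 CPM), whose part in the cell cycle genes was not tested.

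The median change was 1.48 for replication genes and 1.97 for mitosis genes, against -0.01 over all genes. Rrm2, the inducible subunit of the enzyme that makes deoxynucleotides, rose from 40.2, 99 and 148 CPM to 451, 769 and 562 CPM (2.64 ± 0.40). Mcm3, a subunit of the replicative helicase, rose from 77.6, 118 and 141 to 242, 331 and 227 (1.2 ± 0.21). Kif11, a motor that separates spindle poles, rose from 13.1, 29.1 and 37.7 to 124, 203 and 139 (2.55 ± 0.33). Of the 3 replication genes not called, Gins2, a subunit of the helicase complex, changed by 0.58 ± 0.23 (adjusted p = 0.057); it was called higher with DESeq2 (0.037), limma-voom (0.033, or 0.043 with quality weights), upper quartile scaling (0.046), no filter on low counts (0.045) and without monocyte-derived library 3 (0.0054).

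The D-type cyclins, which link growth factor signals to the cell cycle, did not move together. Ccnd2 fell from 66.7, 23.5 and 27.9 CPM to 0.698, 1.26 and 0.506 CPM (-5.57 ± 0.51, adjusted p = 2.0e-05), against a resident mean of 17.2 CPM. Ccnd1 (0.94 ± 0.19) and Ccnd3 (0.79 ± 0.15) were higher. Their kinase gene Cdk6 was lower (-1.12 ± 0.19), whereas Ccne2, the cyclin that fires replication, was higher (2.14 ± 0.33). Of the inhibitors, 7 of 15 genes of cell cycle inhibition were higher and 2 lower, with Cdkn2c, an inhibitor of CDK4 and CDK6, rising from 11.7, 24.6 and 28.2 to 97.8, 127 and 99.8 (2.34 ± 0.27). Cdkn1a, the p53-induced inhibitor p21, was not called (0.10 ± 0.10), and Btg1, an antiproliferative factor, was lower (-1.84 ± 0.25). The repressors E2f7 (2.44 ± 0.25) and E2f8 (1.98 ± 0.35), which close the replication phase, were higher.

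Motifs were counted in the promoters of the replication and mitosis lists. The cell cycle genes homology region, TTTGAA, was found on either strand in 26 of 37 mitosis promoters with an entry (70.3%), in 5 of 33 replication promoters (15.2%) and in 20.2% of all promoters in the table. A core of the E2F site, GCGGGAA, was found in 2 of 37 mitosis promoters (5.41%), 15 of 33 replication promoters (45.5%) and 5.29% of all promoters. This motif was chosen after the values had been seen and the first motif had been counted. CCAAT was common to both, in 26 of 37 (70.3%) and 21 of 33 (63.6%) against 41.1%. None of these 3 motifs contains another. Plk1, a kinase that governs entry into mitosis and rose from 9.92, 21.6 and 26.7 CPM to 83.9, 132 and 102 CPM (2.45 ± 0.31), Kif11 and Mcm3 are shown as examples chosen after their values were seen. Capitals mark TTTGAA and CCAAT in Plk1 and Kif11 and GCGGGAA in Mcm3, on either strand.
Plk1 (chr7:122159185-122159484, + strand): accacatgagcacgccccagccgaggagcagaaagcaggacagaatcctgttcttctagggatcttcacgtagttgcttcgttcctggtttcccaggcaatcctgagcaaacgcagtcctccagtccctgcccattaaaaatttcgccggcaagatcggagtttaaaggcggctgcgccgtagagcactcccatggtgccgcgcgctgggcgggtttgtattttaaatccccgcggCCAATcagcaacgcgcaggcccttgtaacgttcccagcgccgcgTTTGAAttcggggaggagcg
Kif11 (chr19:37376132-37376431, + strand): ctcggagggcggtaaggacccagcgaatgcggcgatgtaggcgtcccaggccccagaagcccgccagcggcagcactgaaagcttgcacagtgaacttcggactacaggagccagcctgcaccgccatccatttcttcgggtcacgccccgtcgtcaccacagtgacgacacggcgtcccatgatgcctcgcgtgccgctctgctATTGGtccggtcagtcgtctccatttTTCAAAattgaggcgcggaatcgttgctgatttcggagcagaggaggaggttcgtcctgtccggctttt
Mcm3 (chr1:20820263-20820562, - strand): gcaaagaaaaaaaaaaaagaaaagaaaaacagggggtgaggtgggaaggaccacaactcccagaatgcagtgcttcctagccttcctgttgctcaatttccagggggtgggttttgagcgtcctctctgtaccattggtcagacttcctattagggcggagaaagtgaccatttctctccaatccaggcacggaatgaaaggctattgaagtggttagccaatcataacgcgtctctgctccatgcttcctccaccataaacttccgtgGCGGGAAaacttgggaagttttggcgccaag
In Plk1 the CCAAT box lay at -14 to -10 and the homology region at 30 to 35; in Kif11 both lay before the start, at -45 to -41 and -19 to -14, and in Mcm3 the E2F core lay at 19 to 25.

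**Figure D5:**
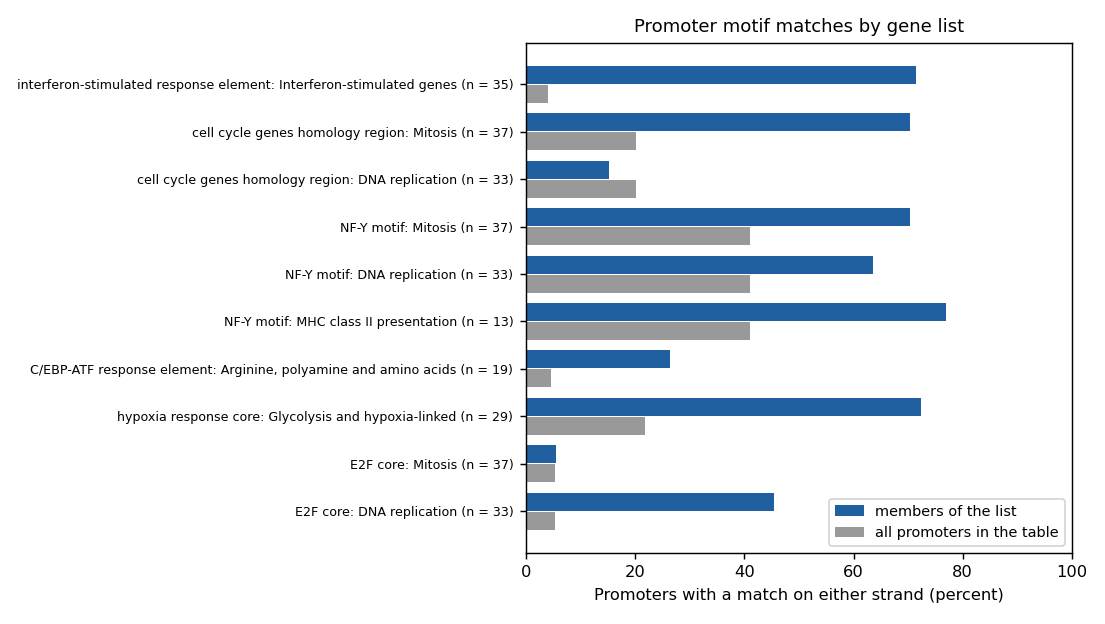
Percent of promoters with a motif match on either strand, for members of a gene list (blue, with the number of promoters found) and for all promoters in the table (grey). The homology region stands at 70.3% in mitosis and 15.2% in replication promoters, and the E2F core at 5.41% and 45.5%. The NF-Y motif is CCAAT.

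Most interferon-stimulated genes were higher in converted cells, while 3 chains of the interferon receptors were lower. Of 48 tested genes 29 were higher and 3 lower, with a median change of 1.09. Irf7, the factor that amplifies type I interferon, rose from 8.32, 9.6 and 10.7 CPM to 82.2, 129 and 52.2 CPM (3.2 ± 0.34, adjusted p = 5.5e-05). Gbp7, a guanylate-binding protein of cell-autonomous defence, rose from 17.7, 15.2 and 14.5 to 114, 124 and 103 (2.84 ± 0.12), and Oas3, which senses double-stranded RNA, from 7.95, 4.45 and 2.14 to 44.9, 88.5 and 28.4 (3.45 ± 0.49). The groups did not overlap in these 3 genes. Other classical members were not called, among them the RNA-binding Ifit2 (0.60 ± 0.46) and the signal transducer Stat2 (-0.20 ± 0.14), and Usp18, which blunts interferon signalling, was lower (-0.87 ± 0.27) but lost its call without monocyte-derived library 1 (adjusted p = 0.063), converted library 1 (0.068) or converted library 3 (0.075) and without the filter on low counts (0.083). The second converted library was the highest of its group in 30 of 33 such genes with at least 10 CPM, against 35.2% of all genes at that level. Without it, 27 members were called higher and 4 lower, and without converted library 1 or 3 the 3 lower became 1. Copies of the Gbp, Oas, Slfn and Naip families resemble each other, and reads that fit several of them may have been split or dropped.

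Receptors and sensors were measured beside these. Ifngr1, the binding chain of the interferon gamma receptor, fell from 578, 573 and 596 CPM to 149, 142 and 176 CPM (-1.9 ± 0.09), and Ifngr2 (-1.09 ± 0.10) and Ifnar1 (-1.46 ± 0.10) were lower, while Ifnar2 was not called (-0.08 ± 0.10). Of 27 tested Toll-like and cytosolic sensor genes 14 were higher and 6 lower. Tmem173, which encodes the DNA-response adaptor STING, fell from 139, 73.4 and 87 to 12.6, 19.6 and 13.2 (-2.72 ± 0.26). Nlrp3, the inflammasome sensor of cell damage, had 2 reads in converted libraries against 10.2, 2.95 and 2.85 CPM, a ratio of monocyte-derived over converted of 158 (95% counting interval 43.5 to 1315). Tlr8, a sensor of RNA, was lower (-2.06 ± 0.16). The peptidoglycan sensor Nod1 rose from 10.9, 17.5 and 18.5 to 87.9, 92.2 and 86.7 (2.51 ± 0.17), and the bacterial protein sensors Naip1 (3.09 ± 0.26), Naip5 (0.94 ± 0.11) and their partner Nlrc4 (1.16 ± 0.22) were higher, with the adaptor Pycard (0.71 ± 0.10) and the protease Casp1 (0.93 ± 0.12).

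The Gbp3 promoter is shown as an example, chosen for its cluster of interferon-stimulated response elements, in capitals. Each element is TTTC and TTTC separated by 2 bases of any kind. The level of Gbp3 is not given here. This response element was found on either strand for 25 of 35 interferon-stimulated genes with an entry (71.4%), against 3.99% of all genes. The 35 genes were counted whatever their call, so the share does not bear on direction.
Gbp3 (chr3:142559794-142560093, + strand): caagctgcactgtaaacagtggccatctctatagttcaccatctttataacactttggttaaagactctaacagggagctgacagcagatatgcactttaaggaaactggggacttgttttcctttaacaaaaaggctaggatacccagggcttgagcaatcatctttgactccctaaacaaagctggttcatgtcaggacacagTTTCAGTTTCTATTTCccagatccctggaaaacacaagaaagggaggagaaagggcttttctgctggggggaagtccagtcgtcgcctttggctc
The 2 matches overlap and span bases -45 to -30. A second start of Gbp3 in the table held none.

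Antigen presentation genes divided by class. Of 19 genes of MHC class II presentation to helper T cells 12 were lower and 2 higher in converted cells, with a median change of -1.0, whereas of 21 class I genes 6 were higher and 5 lower, with a median of 0.13. The 5 class I genes lower became 3 without monocyte-derived library 1 and 2 without converted library 1 or 3, and the 2 class II genes higher became 1 without converted library 3. Ciita, the coactivator that switches on class II genes, fell from 117, 57.9 and 71.8 CPM to 16.7, 14.9 and 15.1 CPM (-2.4 ± 0.24, adjusted p = 3.4e-05). H2-Eb1, a class II beta chain, fell from 1888, 1481 and 2094 to 112, 105 and 102 (-4.1 ± 0.16), and H2-DMb1, which loads peptides onto class II, from 698, 399 and 484 to 79.5, 77.6 and 92.5 (-2.66 ± 0.19). The groups did not overlap in these genes. The resident mean of H2-Eb1 was 294 CPM, beside B-cell marker sums of 1599 to 2088 CPM in resident and 150.2 to 306 CPM in converted libraries; the part of B cells was not tested. Among class I genes, the heavy chain H2-K1 was not called (0.13 ± 0.08), the immunoproteasome subunit Psmb9 was higher (0.55 ± 0.10), and Psmb8, another subunit, was lower (-0.36 ± 0.11) with its call lost without converted library 1 (adjusted p = 0.058) or 3 (0.067). Dendritic cell markers summed to 87.5 to 146 CPM in converted and 152 to 293 CPM in monocyte-derived libraries, and their part in the class II genes was not tested.

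CCAAT, read as the Y box of class II promoters, was found on either strand in 10 of 13 class II promoters with an entry (76.9%), against 41.1% of all. On the strand of the gene alone it was found in 2 of 13 (15.4%), against 23.7% of all. H2-Eb1 is shown with both matches in capitals, as an example chosen after its values were seen.
H2-Eb1 (chr17:34305617-34305916, + strand): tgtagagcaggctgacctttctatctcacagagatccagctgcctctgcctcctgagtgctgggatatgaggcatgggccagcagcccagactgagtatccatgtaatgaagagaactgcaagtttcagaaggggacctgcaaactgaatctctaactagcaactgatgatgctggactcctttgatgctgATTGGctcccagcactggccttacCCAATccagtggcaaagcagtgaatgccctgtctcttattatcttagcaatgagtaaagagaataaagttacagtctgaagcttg
They lay at -59 to -55, as the reverse complement, and at -35 to -31.

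Chemokine genes were mostly lower in converted cells, with 13 of 21 tested members lower, 4 higher and a median change of -2.32. Ccl9, which attracts myeloid cells, fell from 2946, 4892 and 3756 CPM to 748, 729.5 and 845 CPM (-2.32 ± 0.18), and Ccl6, its relative, from 4216, 8626 and 6188 to 2625, 2520.2 and 3233 (-1.18 ± 0.22). Ccl22, which draws regulatory and type 2 T cells and is known as an IL-4 target, had 5.87, 8.21 and 4.4 CPM in monocyte-derived libraries and no read in converted ones, at least 118-fold lower. Among those that rose, the platelet factor gene Pf4 went from 5.01, 57.2 and 36.6 CPM to 331, 304 and 344 CPM (3.31 ± 0.63), and the neutrophil attractant Cxcl2 from 5.97, 11 and 12.2 to 178, 54.3 and 103 (3.53 ± 0.42). Of 14 tested chemokine receptors 8 were lower and 3 higher. Ackr3, a scavenging receptor for the chemokine CXCL12, rose from 1.39, 0.809 and 1.88 to 166, 156 and 209.9 (7.04 ± 0.24, adjusted p = 3.2e-08). Cmklr1, the receptor for chemerin, was higher (2.88 ± 0.20), and Cxcr4, the signalling receptor for CXCL12, was lower (-2.62 ± 0.30).

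Cytokine genes went both ways, with 8 of 22 higher and 11 lower. The IL-1 antagonist Il1rn fell from 44.8, 123 and 117 CPM to 5.43, 4.41 and 5.74 CPM (-4.19 ± 0.37), and Tnf (-3.4 ± 0.56) and Il1b (-3.76 ± 0.78) were lower from low levels. Il18, an inflammasome-processed cytokine, rose from 1.33, 3.3 and 3.3 to 17.2, 15.9 and 16.1 (2.65 ± 0.27), and Il6 was higher (1.78 ± 0.26). Il1rl1, which encodes the receptor for IL-33, rose from 54, 93.1 and 95.5 CPM in monocyte-derived to 163, 225 and 263 CPM in converted libraries (1.42 ± 0.23).

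The ligands, receptors and inhibitors of TGF-beta signalling changed in different directions. Of 23 tested genes 8 were higher and 9 lower. Tgfb2 stood at 0.213, 0 and 0.0647 CPM in monocyte-derived and 69, 26.4 and 58.3 CPM in converted libraries (8.95 ± 0.61, adjusted p = 2.8e-06), while Tgfb1 fell from 302, 264 and 245 to 149, 138 and 149.8 (-0.89 ± 0.09) and Tgfb3 was lower (-4.08 ± 0.75). The receptor genes Tgfbr2 (1.0 ± 0.20) and Tgfbr3 (3.72 ± 0.50) were higher. The signal transducer Smad3 rose from 6.61, 5.61 and 9.19 CPM to 73.2, 52.6 and 55.5 CPM (3.09 ± 0.19). The inhibitors Smad7 (-3.63 ± 0.36) and Skil (-3.91 ± 0.39), both known targets of the pathway, were lower. Ltbp3, which holds the ligand in latent form, was lower as well (-1.8 ± 0.15). Among growth factors, Hbegf fell from 83.6, 64.8 and 78.7 to 3.99, 2.52 and 6.41 (-4.14 ± 0.29), Pdgfa from 19.6, 17.2 and 14.5 to 2.19, 1.73 and 2.08 (-3.09 ± 0.19) and Igf1 from 243, 635 and 533 to 202, 101 and 156 (-1.62 ± 0.35).

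Matrix proteins were mostly higher and matrix proteases mostly lower in converted cells. Of 16 tested matrix genes 10 were higher and 3 lower (5 or 6 lower without monocyte-derived library 1 or 3), and of 20 protease and inhibitor genes 3 were higher and 13 lower. Thbs1, a matrix protein that binds CD36 and CD47, rose from 48.7, 107 and 151 CPM to 1172, 1441 and 1864 CPM (3.87 ± 0.41). Ecm1, a glycoprotein that binds matrix proteases, rose from 316, 362 and 378 to 2364, 1795 and 2612 (2.68 ± 0.14), and Fn1, fibronectin, from 3858, 4193 and 4189 to 6527, 5148 and 6299 (0.55 ± 0.13). Mmp12, macrophage elastase, fell from 262, 2141 and 1708 to 5.73, 6.78 and 9.12 (-7.57 ± 0.76, adjusted p = 3.7e-05), and Mmp14, a membrane-bound collagenase, from 36.6, 26.3 and 29.7 to 6.43, 5.1 and 5.57 (-2.44 ± 0.22). The collagenase gene Mmp8 had no read in converted libraries, at least 54.5-fold lower.

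Related protease inhibitors moved in opposite directions. Timp1 fell from 168, 90.6 and 87.9 CPM to 0.498, 0.473 and 0.731 CPM (-7.66 ± 0.75), while Timp2 rose from 202, 844 and 611 to 1708, 1416 and 1896 (1.6 ± 0.40); the call of Timp2 was lost without the filter on low counts (adjusted p = 0.056). Serpinb2, an inhibitor of plasminogen activators, rose from 2.13, 7.34 and 6.54 to 2516, 2087 and 2530.2 (8.81 ± 0.41, adjusted p = 2.7e-07). Plau, one of the enzymes it inhibits, was lower (-1.59 ± 0.27).

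Complement genes were mostly higher in converted cells, with 13 of 19 tested members higher and 3 lower. C3, the central component, rose from 432, 262 and 296 CPM to 1490.1, 1792 and 1895 CPM (2.39 ± 0.19), and C1qc, a chain of the complex that recognises dying cells and antibody, from 412, 748 and 726 to 2162, 1854 and 2143 (1.71 ± 0.20). Vsig4, which binds C3 fragments on tissue macrophages, rose from 0.213, 1.97 and 0 to 108, 111 and 157 (7.4 ± 0.58). The receptors for the inflammatory fragments of C3 and C5, C3ar1 (-0.75 ± 0.17) and C5ar1 (-1.14 ± 0.16), were lower. Of the integrin chains that pair with Itgb2 to take up C3-coated particles, Itgam was higher and Itgax lower (above). Itgam rose from 639, 427 and 559 CPM in monocyte-derived to 1183, 1203 and 1285 CPM in converted libraries (1.18 ± 0.13). Coagulation genes split, with 6 of 17 higher and 8 lower: the cofactor F5 rose from 17.7, 23 and 21.6 to 286, 293 and 325 (3.86 ± 0.12), the anticoagulant Pros1 was higher (1.81 ± 0.18), and F7 (-1.22 ± 0.22) and tissue factor, F3, were lower. F3 had 3 reads in converted libraries against 0.533, 5.55 and 12.1 CPM, a ratio of monocyte-derived over converted of 108 (95% counting interval 36.6 to 526).

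Purine signalling genes went both ways, with 8 of 20 tested members higher and 9 lower; without any 1 of the 3 converted libraries 5 were higher. Nt5e (CD73), which turns AMP into adenosine, rose from 3.31, 0.636 and 3.3 CPM to 48.6, 65.7 and 47.7 CPM (4.48 ± 0.40), Entpd1 (CD39), which acts before it, from 10.6, 32.7 and 34.7 to 83.5, 94.1 and 81.9 (1.74 ± 0.34), and the NAD-consuming enzyme gene Cd38 from 37.1, 21.4 and 44 to 165, 258 and 335 (2.89 ± 0.30). The receptor gene P2ry6, which senses UDP, fell from 120.2, 71.8 and 72.2 to 0.349, 0.315 and 0.506 (-7.8 ± 0.37). The ATP-gated channels P2rx7 (-1.66 ± 0.17) and P2rx4 (-1.29 ± 0.23) and the adenosine receptor Adora2a (-1.15 ± 0.18) were lower.

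Within surface receptor families some members were higher and others lower. Among C-type lectins, with 4 of 14 higher and 8 lower, the beta-glucan receptor Clec7a (dectin-1) fell from 642, 597 and 633 CPM to 5.93, 3.36 and 7.48 CPM (-6.8 ± 0.30), while Clec4e, which senses mycobacterial lipid and dead cells, rose from 32.7, 22.9 and 29.7 to 201, 162 and 237 (2.81 ± 0.17). Among integrins, with 10 of 24 higher and 9 lower, Itgb7 rose from 234, 119 and 163 to 1032, 1255 and 1112 (2.72 ± 0.22) and Itga6, a laminin receptor chain, from 23.4, 27.5 and 24.2 to 274, 286 and 236 (3.41 ± 0.13). Itgb5, a chain of the vitronectin receptor, fell from 40.0, 53 and 39.7 to 0.0997, 0 and 0.169 (-8.87 ± 0.39), and Itga1, a collagen receptor chain, had no read in converted libraries, at least 162-fold lower. Of 9 Fc receptor genes, which bind antibody, 3 were higher (1 without converted library 1) and 4 lower. Fcgr1 fell from 28.3, 13.4 and 6.15 to 0.0997, 0.683 and 0.619 (-5.1 ± 0.67) and Fcgr3 was lower (-0.66 ± 0.10). Of 9 tested genes of the Ms4a cluster 6 were lower and 2 higher, with Ms4a4c falling from 120.1, 19.3 and 49.5 to 0.997, 1.84 and 0.788 (-5.69 ± 0.71) and Ms4a8a rising from 43.3, 71.6 and 53.5 to 175, 157 and 185 (1.61 ± 0.16).

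Receptors and bridging proteins for engulfing dying cells also went both ways, with 8 of 19 tested genes higher and 4 lower, or 8 lower without monocyte-derived library 1. Besides the C1q chains and Pros1 (above), the receptor kinase gene Mertk, which binds protein S, rose from 59.3, 95.4 and 75.4 CPM to 160.5, 156 and 171 CPM (1.08 ± 0.15). Scarf1, a scavenger receptor that binds C1q, rose from 2.24, 4.74 and 4.73 to 44.1, 30.5 and 37.6 (3.27 ± 0.26). Cd36, a receptor for oxidised lipid and apoptotic cells, fell from 336, 1470.5 and 897 to 229.5, 114 and 211 (-2.28 ± 0.46).

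Noncoding transcripts were named by the same size rule. Gm38832 rose from 0.587, 0.751 and 0.518 CPM to 9.92, 12.1 and 13 CPM (4.22 ± 0.24) and Gm16104 from 0.320, 1.39 and 0.971 to 15.1, 10.8 and 12.1 (3.84 ± 0.35). Gm13986 had 8.17, 7.93 and 11 CPM in converted and 0.107, 0.173 and 0 CPM in monocyte-derived libraries (6.45 ± 0.42). In the other direction Dnmt3aos, annotated opposite the DNA methyltransferase gene Dnmt3a, had 2.88, 10.7 and 12.2 CPM in monocyte-derived libraries and 1 read in converted ones, a ratio of 473 (95% counting interval 84.4 to 18715). No source used here says if counting used the strand, so its reads cannot be told apart from those of Dnmt3a.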

How the data were processed

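RNA from sorted mouse peritoneal macrophages was sequenced in 9 libraries, 3 a group, made with a low-input kit per the labels' protocols. Reads were aligned with TopHat2 2.1.0 to GRCm38 and counted per gene with HTSeq, per the submitters' processing notes. The deposited values are raw counts per gene made by the authors. Gene models, strandedness of counting and treatment of multiply aligned reads were not given in the sources used here. Lines for reads in no gene (4.02 to 5.07% in the 6 libraries compared) and in several genes (4.57 to 4.68%) were left out. Names came from GENCODE M21, which matched 47310 of 47729 identifiers. The ATAC-seq of the study was not analysed here.

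Differences were tested with edgeR 4.0.16 in R 4.3.3 by the robust quasi-likelihood test, after a filter with a minimum count of 10 and a minimum total of 15 and TMM scaling. All 9 libraries entered 1 fit (6 residual degrees of freedom), and adjusted p-values are Benjamini-Hochberg values over all 13223 genes tested, with 0.05 as the threshold. Levels are CPM computed here on TMM-scaled library sizes. For a gene without reads in a group, 3 reads over that group served as the floor. Ratios with 1 to 3 reads carry an exact 95% interval; both cover counting error only. The tests were also run on simulated counts with few changed genes and the same spread for all genes and groups. The data differ in both, so that run does not bear on the calls reported here. Alternatives were DESeq2 1.42.0, limma 3.58.1, other scalings, filters and gene sets, a fit of the 2 groups alone, a replicate block and leaving out each library. Leaving out the X and Y chromosomes was added after seeing the data.

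Genes and lists were chosen with earlier results of these data known. Genes were named from fixed parts: key genes, the largest folds and CPM differences, up to 4 called members a direction in each list, the highest genes with narrow intervals, the widest spreads, noncoding transcripts and nuclear factors. Other list members named as examples were chosen after their values were seen. CPM is not divided by length, so levels of different genes are not compared.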

Additional observations from a re-analysis of the deposited data

How the results depend on the processing

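Every monocyte-derived library had fewer reads in genes (15220884 to 17940140) than every converted one (18593287 to 20496258). Further limits lie in 3 libraries a group and in the confounds of the design. The counts of called genes stayed within 1.5 times under every alternative run, from 2857 to 3610 higher and from 2639 to 3522 lower, and no gene called in both was called in the opposite direction. The fit of the 2 groups alone, without the resident libraries, kept 81.8% of the 6703 calls. With limma-voom and quality weights per group 85.6% were kept. The fit of the 2 groups also had fewer libraries and fewer genes tested (12583), so the part of the resident spread in this loss was not tested. Scaling by total counts moved the share of higher among called genes from 51.0% to 46.4%. With a replicate block, 3219 genes were higher and 3057 lower. The shared numbers did not pair the libraries: the correlations of deviations for equal numbers were -0.04, -0.09 and 0.01. Without genes on X and Y, 3319 were higher and 3175 lower.

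The count of genes with the 95% interval within 0.32 of zero (log2), 1007 in the fit reported, was 564 in the fit of the 2 groups alone, 3865 with a limit of 1.5-fold and from 607 to 1063 with a library left out. List counts moved by over 1.5 times in 80 of 2196 cases.

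Some genes not called changed sign between settings. In the fit of the 2 groups the log2 fold change was 0.010 for Ucp2. With DESeq2 the log2 fold change was 0.0090 for Ucp2. With at least 50 reads in 3 libraries the log2 fold change was -0.0058 for Atp5b and -0.0028 for Spi1. Without the filter the log2 fold change was 0.0013 for Rap1b and 0.027 for Ucp2. With protein-coding genes only the log2 fold change was -0.0042 for Atp5b and -0.00099 for Spi1. With total counts the log2 fold change was -0.045 for Atp5b, -0.028 for Csf1r, -0.031 for Gapdh and -0.040 for Spi1. With upper quartiles the log2 fold change was 0.012 for Ucp2. With a library left out it ran from -0.15 to 0.012 for Arg1, from -0.013 to 0.046 for Atp5b, from -0.41 to 0.89 for Fabp4, from -0.027 to 0.065 for Gapdh, from -0.18 to 0.054 for Irf4, from -0.31 to 0.86 for Pla2g7, from -0.055 to 0.0066 for Rap1b, from -0.056 to 0.090 for Spi1 and from -0.084 to 0.082 for Ucp2.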

Other observations

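Enzymes of retinoid metabolism went both ways, with 6 of 15 tested genes higher and 5 lower in converted cells. Aldh1a2, which makes retinoic acid, fell from 171, 182 and 239.8 CPM to 10.4, 46.8 and 16.8 CPM (-3.0 ± 0.46), and Dhrs9, which acts before it, from 133, 253 and 212 to 12.5, 8.09 and 20.8 (-3.86 ± 0.35). Cyp26b1, which degrades retinoic acid, rose from 0.160, 0.116 and 0 to 5.48, 4.31 and 5.18 (5.6 ± 0.50). Among Notch genes the ligand Jag1 rose from 0.907, 1.27 and 2.07 to 14.4, 19.1 and 20.4 (3.68 ± 0.27), and Rbpj, the factor through which Notch acts, fell from 467, 334 and 351 to 149, 122 and 129 (-1.53 ± 0.13).

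Fatty acid oxidation genes were more often higher, with 15 of 28 tested members higher and 4 lower (2 without converted library 3). Those higher included Hadh (1.21 ± 0.09) and Acaa2 (1.12 ± 0.11), enzymes of the mitochondrial cycle. Of 22 pentose phosphate and nucleotide synthesis genes 13 were higher and 3 lower. Of 24 genes of ribosome production none was higher and 11 were lower, with a median change of -0.17. Iron genes were more often lower, with 8 of 17 lower and 3 higher, and Hmox1, which frees iron from heme, fell from 204, 369 and 334 to 170.5, 141 and 175 (-0.90 ± 0.20). Of 25 antioxidant genes 9 were higher and 5 lower, and Nqo1, a quinone reductase, rose from 0.373, 0.809 and 0.777 to 2.34, 4.1 and 2.64 (2.22 ± 0.38).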
